A study of Gallus gallus with 24 samples.

Results

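The 6 genes described here encode liver plasma proteins that dissolve clots, carry the precursor of the kinin peptides or restrain proteases: plasminogen (PLG), carboxypeptidase B2 (CPB2), serpin family D member 1 (SERPIND1), alpha-2-macroglobulin (A2M), vitronectin (VTN) and kininogen 1 (KNG1). They were taken by symbol from the probe annotation of a spotted chicken cDNA array, which gave 11 of its 19200 probes to them. PLG had 2 probes, A2M had 4, VTN had 2, and the other 3 genes had 1 each. After averaging the probes of a gene, the 6 genes were 6 of 14855 features tested (6385 genes and 8470 probes without a symbol), and all 6 were measured on every array. The only missing value was that of A2M probe 4 on 7 wk replicate 2.

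The arrays compared the livers of broiler chickens of the fat line (FL) and the lean line (LL), which had been selected in opposite directions on the weight of the abdominal fat. Both lines were grown under a standard broiler protocol with no further treatment named. Birds were taken at 6 ages, every other week from 1 to 11 wk, with 4 arrays at each age, and each of the 24 arrays held 1 FL and 1 LL sample in its 2 channels. FL was in channel 1 (Alexa Flour 555) on replicates 1 and 3 and in channel 2 (Alexa Flour 647) on replicates 2 and 4. Because the lines were bred, a difference between them cannot be assigned to a single allele, and liver tissue holds several cell types.

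Each deposited value is a log ratio of the channels, read here as log2. The sources used here do not state which channel is the numerator, nor whether the columns were turned to 1 direction before deposit. Values are therefore given in 2 ways. A ratio "as deposited" is the value in the table. A "turned" ratio carries the sign of the dye orientation. It is positive where FL exceeded LL if channel 2 is the numerator and the columns were not turned before deposit. The mean of the turned ratios measures the difference between lines if the columns were not turned, and a dye effect if they were. The "common term" is the part that keeps its sign in both orientations. The common term is a dye effect if the columns were not turned before deposit and a difference between the lines if they were, and these cannot be told apart from the sources. The table holds ratios and no levels, so it cannot show how abundant a transcript was, and fewer cells of a type and less RNA per cell cannot be told apart.

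As background, plasminogen is the circulating precursor of plasmin, the protease that cuts fibrin. Carboxypeptidase B2, once activated, trims from fibrin the lysines that plasminogen binds and so slows its lysis. Kininogen carries bradykinin, a peptide that widens vessels, and takes part in the contact system with plasma kallikrein. SERPIND1, also called heparin cofactor II, inhibits thrombin. A2M traps many proteases in a molecular cage, and vitronectin binds integrins and holds plasminogen activator inhibitor in its active form. In humans hepatocytes are the main source of all of these.

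Several arrays stood apart. Array medians lay between -0.02 and 0.03 except on 7 wk replicate 1, at 0.33. Across spots, 7 wk replicate 1 was most like 11 wk replicate 4 (r = 0.80), above every other pair (next highest 0.71). The column of 1 wk replicate 4 ran against the mean of the others (r = -0.31 across spots) and below -0.3 against 4 arrays of the same orientation. It gave the highest of the 24 values for 5 of the genes and the lowest for KNG1. The SD over spots was 0.18 to 0.39. The series calls the 4 arrays of an age biological replicates.

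Plasminogen, the fibrinolytic zymogen, showed the widest spread. As deposited, PLG read -0.23, -0.32, 0.59 and 1.65 on replicates 1 to 4 at 1 wk, and -0.19, -0.78, -2.04 and -1.15 at 3 wk. At 5 wk it read 0.03, -0.65, -0.18 and -0.43, and at 7 wk -0.33, -0.35, -0.87 and -0.01. At 9 wk it read -0.37, -0.13, -0.64 and -0.02, and at 11 wk -0.99, -0.66, -1.01 and -0.68. The ratio was thus negative on 21 of 24 arrays, and the 3 positive values were 1 wk replicates 3 and 4 and 5 wk replicate 1. The groups overlapped between neighbouring ages except that all 4 arrays of 11 wk lay below all 4 of 9 wk. With FL in channel 1 the mean was -0.52 ± 0.66 (SD, n = 12), and with FL in channel 2 it was -0.29 ± 0.70, so the values did not change sign with the orientation.

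CPB2, which protects fibrin from plasmin, had smaller ratios. They ran from -0.85 (3 wk replicate 3) to 0.60 (1 wk replicate 4), with a median of -0.09, and 17 of 24 were negative. At every age but 3 wk at least 1 of the 4 arrays was positive, and the age means were between -0.41 ± 0.32 (SD, n = 4) at 3 wk and 0.20 ± 0.32 at 1 wk.

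Vitronectin was negative on 20 of 24 arrays. At 1 wk VTN read -0.26, -0.78, 0.15 and 0.55, followed at 3 wk by -0.83, -1.15, -1.05 and -0.41. The 4 arrays of 5 wk gave 0.39, -0.24, 0.11 and -0.42, and those of 7 wk gave -0.76, -0.33, -0.80 and -0.31. It read -0.87, -0.73, -1.12 and -1.37 at 9 wk, and -1.31, -1.06, -0.48 and -1.17 at 11 wk. All 4 positive values were at 1 and 5 wk, and no array at 3, 7, 9 or 11 wk was above -0.31. The age means were -0.09 ± 0.57 (SD, n = 4), -0.86 ± 0.33, -0.04 ± 0.36, -0.55 ± 0.26, -1.02 ± 0.28 and -1.005 ± 0.36 from 1 to 11 wk.

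KNG1, the kinin precursor, went the other way. At 1 wk it read 0.19, 0.33, -0.11 and -0.22, followed at 3 wk by 0.35, 0.41, 0.61 and 0.37. The arrays of 5 wk gave -0.03, 0.46, 0.09 and 0.32, and those of 7 wk gave 0.68, 0.42, 0.97 and 0.30. It read 0.71, 1.24, 0.85 and 0.94 at 9 wk, and 0.67, 0.70, 0.90 and 0.54 at 11 wk. It was positive on 21 of 24 arrays, and all 8 arrays at 9 and 11 wk lay above all 8 at 1 and 5 wk, which held the 3 negative values. From the youngest to the oldest birds the age means were 0.05 ± 0.25 (SD, n = 4), 0.44 ± 0.12, 0.21 ± 0.22, 0.59 ± 0.30, 0.93 ± 0.23 and 0.70 ± 0.15.

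The 2 protease inhibitors were mostly negative. SERPIND1, the thrombin inhibitor, ran from -1.39 (9 wk replicate 4) to 1.04 (1 wk replicate 4) with a median of -0.39, and was negative on 19 of 24 arrays. A2M, the broad protease trap, ran from -1.80 (3 wk replicate 3) to 1.19 (1 wk replicate 4) with a median of -0.48, and was negative on 21 of 24. For A2M every array at 3, 5, 9 and 11 wk was negative, and the lowest age mean was that of 3 wk, -0.99 ± 0.55 (SD, n = 4). For SERPIND1 the lowest age mean was that of 9 wk, -0.91 ± 0.51. In all, 5 of the 6 genes kept 1 sign on at least 19 of the 24 arrays, 4 negative and 1 positive, as did 10.2% (negative) and 17.2% (positive) of all features.

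**Figure D1:**
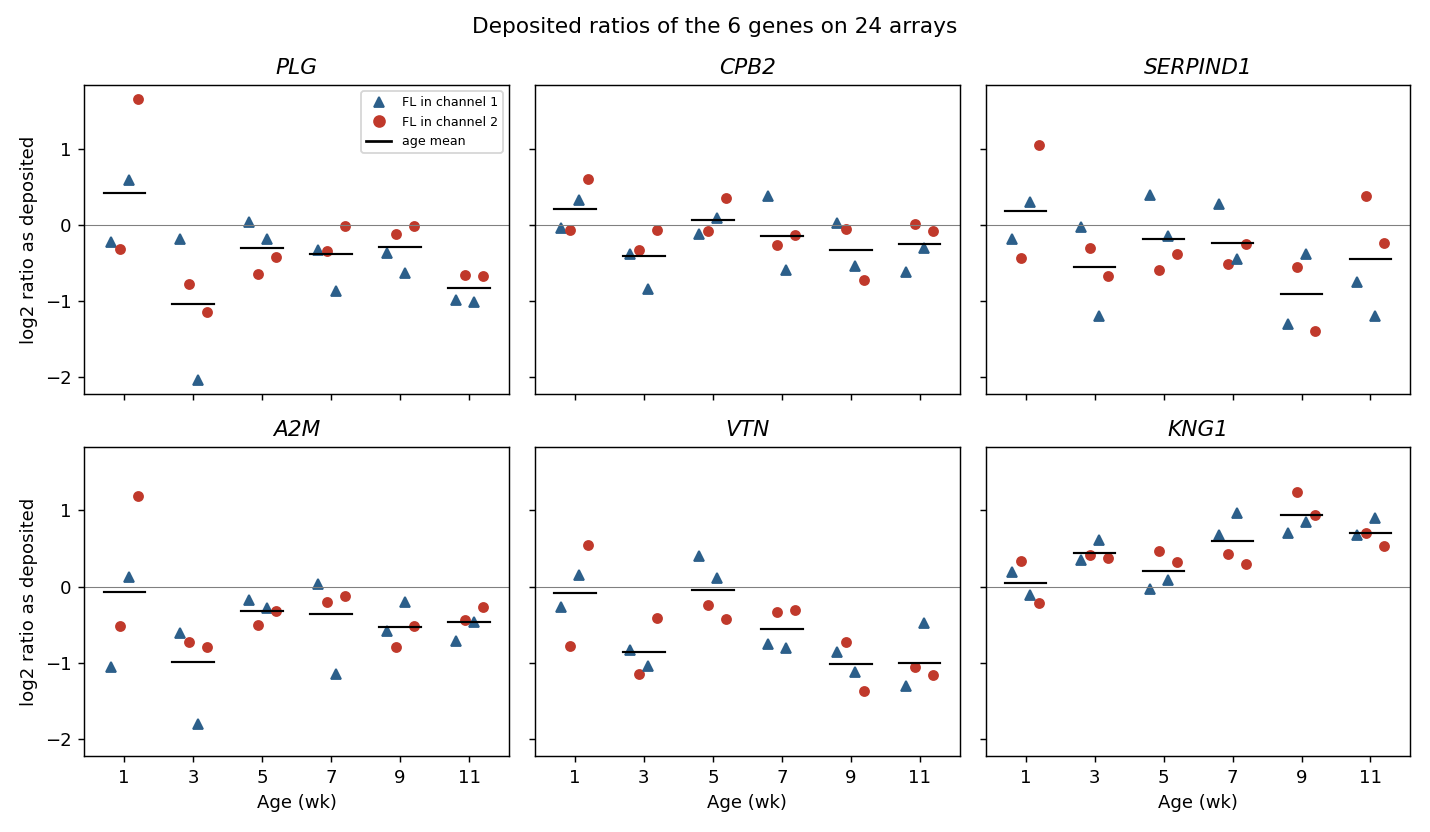
Deposited log2 ratio (y axis) of each gene against age in wk (x axis), 1 point for each of the 4 arrays at an age, triangles where FL was in channel 1 and circles where it was in channel 2, with the age mean as a line. Triangles and circles mix at most ages, VTN lies at or below -0.31 at 3, 7, 9 and 11 wk, and KNG1 lies above 0 at 3, 7, 9 and 11 wk.

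The first comparison asked whether FL and LL livers differed irrespective of age. None of the 6 genes was called in the mean of the turned ratios (limma, adjusted p of 0.05 or less over all features; background 0% of 14855 features called), and none had an unadjusted p under 0.05, against 496 features. The estimates were 0.11 ± 0.14 (SE, 24 arrays; 95% interval -0.18 to 0.41) for PLG, 0.07 ± 0.07 (-0.08 to 0.23) for CPB2 and -0.03 ± 0.11 (-0.26 to 0.21) for VTN. For KNG1 the estimate was -0.00 ± 0.07 (-0.15 to 0.15), for SERPIND1 0.03 ± 0.11 (-0.21 to 0.27) and for A2M 0.12 ± 0.11 (-0.11 to 0.35). The adjusted p was 1.00 for each gene. Turned ratios were positive on 10 to 13 of the 24 arrays in each gene. Under this reading of the columns, the intervals leave room for a mean FL to LL ratio between 0.837-fold and 1.33-fold over the 6 genes, and a missed threshold does not show that the lines were alike.

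Single ages gave no call for a member either. Over 36 combinations of gene and age none passed, against a background of 1.1% of features at 7 wk, 0.00673% at 9 wk and 0% at the other ages. The only gene and age with the same turned sign on all 4 arrays was VTN at 5 wk, at -0.29 ± 0.14 (SD, n = 4). Its SE in the fit was 0.27 and its unadjusted p was 0.294 (limma). How many of all features kept 1 sign at an age was not counted. At 9 wk, by contrast, the turned VTN ratio was -0.03 ± 1.21 and at 11 wk -0.11 ± 1.21, since the deposited ratios kept their sign in both orientations. The dependence of the line ratio on age (moderated F test, background 0%) was called for none of the 6 genes. Nor was a linear trend with age (background 0%). No gene had an unadjusted p under 0.05 (limma) in a single age, the age dependence or the trend. Over all features the share under 0.05 was 18.6% at 7 wk and 0.464% to 3.25% at the other ages. It was 3.96% for the age dependence and 1.58% for the trend. If the columns had been turned before deposit, 5 of the 6 genes would be called in the mean over ages (CPB2 would not), with 41.3% of all features called in that fit, so this comparison rests on the direction of the columns.

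The common term was called for 5 of the 6 genes, negative for 4 and positive for 1 (adjusted p from limma over all features). The background was high, at 37.6% of features called (24.2% positive and 13.5% negative), so a call in this term is common among all features. VTN had -0.60 ± 0.11 (SE, 24 arrays, adjusted p = 0.000512) and stood at rank 103 of 14855 by size. KNG1 had 0.49 ± 0.07 (adjusted p = 8.38e-05), at rank 236, with the opposite sign. In size these are 1.51-fold for VTN and 1.40-fold for KNG1, in opposite directions, whether between the channels or between the lines.

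The inhibitors and plasminogen lay between these. A2M had a common term of -0.45 ± 0.11 (adjusted p = 0.00316), SERPIND1 -0.36 ± 0.11 (0.0181) and PLG -0.41 ± 0.14 (0.0291), and CPB2 missed the threshold at -0.15 ± 0.07 (0.123). The median over the 6 genes was -0.38, against 0.02 over all features tested. The call for PLG was lost without any 1 of 3 wk replicate 2, 3 wk replicate 4, 11 wk replicate 3 or 11 wk replicate 4 (adjusted p up to 0.0573), and CPB2 passed without 1 wk replicate 4 (0.0333). Without 7 wk replicate 1 and all arrays of 9 and 11 wk, PLG (-0.35, adjusted p = 0.234) and SERPIND1 (-0.23, 0.209) lost their calls, while VTN (-0.37, 0.0475) and KNG1 (0.31, 0.00878) kept theirs at values over 1.5 times smaller. In that fit 28.5% of features were called.

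**Figure D2:**
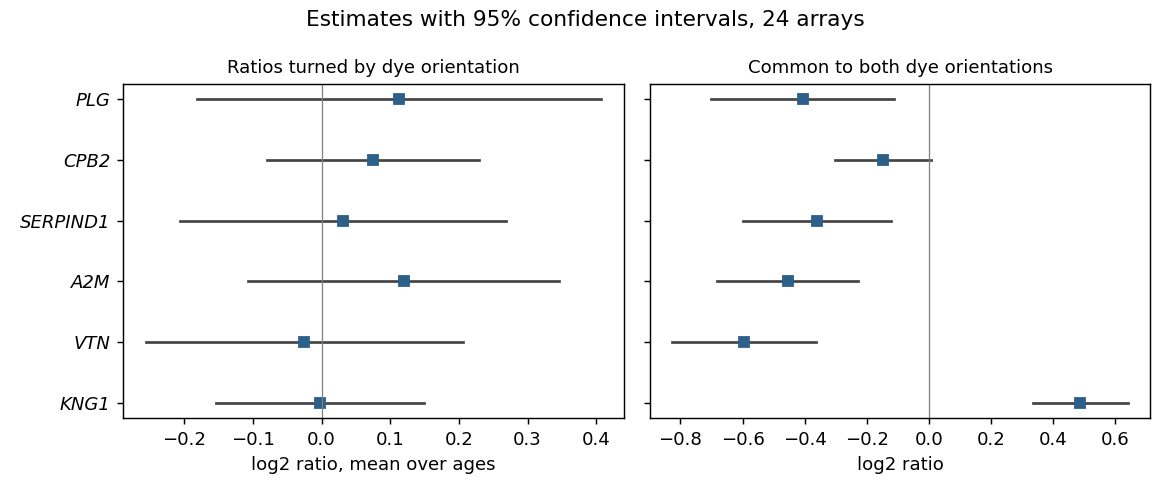
Estimates in log2 units (x axis, squares) with 95% confidence intervals (lines) for the 6 genes, on the left the mean over ages of the turned ratios and on the right the term common to both dye orientations, 24 arrays. All 6 intervals on the left include 0, while on the right only that of CPB2 does, KNG1 is positive and VTN is the most negative.

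The ratio as deposited was also compared between ages. A difference is a dye effect that varied between ages if the columns were not turned before deposit. If they were turned, it is a line ratio that varied between ages. In neither case does the ratio show how expression itself changed with age. KNG1 (adjusted p = 0.00903) and VTN (0.0327) differed between ages by limma's moderated F test, against 4.89% of all features. For KNG1 the order of the age means from low to high was 1, 5, 3, 7, 11 and 9 wk. Neighbours in that order differed by no more than about the larger SD of the pair. For VTN the order from most to least negative was 9, 11, 3, 7, 1 and 5 wk, and 9, 11 and 3 wk lay within their spread of each other. PLG (0.0963), CPB2 (0.277), SERPIND1 (0.340) and A2M (0.482) did not pass.

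Both age calls were lost without the late arrays, as were most such calls over all features. Without 7 wk replicate 1 and all arrays of 9 and 11 wk, a choice made after seeing the data, the adjusted p was 0.279 for KNG1 and 0.250 for VTN, and 31 of 14855 features (0.209%) were called in place of 727. That choice takes out the ages at which both genes had their mean ratios furthest from 0. The loss of the calls therefore cannot be read as a fault of those arrays. KNG1 passed without any single array (0.00544 to 0.0266), whereas VTN lost its call without any 1 of 1 wk replicate 3, 5 wk replicates 1 and 3, 9 wk replicates 3 and 4, or 11 wk replicates 1, 2 and 4 (adjusted p up to 0.0739). PLG gained a call without 1 wk replicate 2 (0.0352) or 3 wk replicate 1 (0.0298), with array weights (0.0420, with 13.1% of features called) and for probe 2 alone (0.0463). For VTN, probe 1 alone passed (0.00341) and probe 2 did not (0.253).

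The 2 probes of PLG did not give the same value on most of the late arrays. PLG probe 1, in block 8 of the 48 blocks of the array, read 0.72, 0.91, 0.27 and -0.20 at 9 wk and -0.05, 0.34, -0.21 and 0.26 at 11 wk. PLG probe 2, in block 23, read -1.47, -1.16, -1.54 and 0.16 at 9 wk and -1.92, -1.66, -1.81 and -1.61 at 11 wk. The gap between them was over 1 on 8 of 9 arrays (7 wk replicate 1, 9 wk and 11 wk), with a median of 1.87, and on none of the other 15, where it was at most 0.39 with a median of 0.17. Across those 15 arrays the 2 probes followed each other (r = 0.97), and across the 9 they did not (r = -0.15). The 9 arrays were set apart because of this gap, so for PLG the split follows largely from that choice.

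In A2M the correlations split in the same way, but the gaps did so only for some pairs. The median gap on the 9 arrays and on the other 15 was 0.34 and 0.27 for probes 2 and 4. For probes 1 and 3 it was 0.43 and 0.30. The other pairs had median gaps of 0.95 to 1.10 on the 9 and 0.18 to 0.43 on the 15. The highest and lowest A2M values, on 1 wk replicate 4 and 3 wk replicate 3, fall among the 15. Their part in the correlations was not tested. Probes 2, 3 and 4 correlated with each other at r = 0.97 to 0.98 over 15 arrays (14 where probe 4 was missing) and at -0.12 to 0.19 over the 9. Probe 1 correlated with them at 0.65 to 0.70 over the 15 and at -0.27 to 0.06 over the 9. On the 9 arrays probes 1 and 3 averaged 0.10 ± 0.42 (SD) and 0.03 ± 0.41, whereas probes 2 and 4 averaged -0.87 ± 0.71 and -1.02 ± 0.54. The averaged A2M value on these arrays therefore joined probes near 0 with probes well below it. The common term by probe was -0.21 and -0.23 for probes 1 and 3, which did not pass (adjusted p = 0.108 and 0.143), and -0.72 and -0.66 for probes 2 and 4 (0.00246 and 0.00360). In PLG it was -0.06 for probe 1 (0.797) and -0.75 for probe 2 (0.00325).

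The VTN probes both passed, at -0.60 and -0.59 (adjusted p = 0.00111 and 0.000966), but differed in their course over age. Probe 1, in block 16, read -1.19 ± 0.19 (SD) on the 9 arrays and -0.25 ± 0.48 on the other 15, and probe 2, in block 29, read -0.78 ± 0.51 and -0.47 ± 0.59. Their correlation was 0.81 over the 15 arrays and 0.31 over the 9. The gap between them did not widen as in PLG. Its median was 0.27 on the 15 and 0.26 on the 9, and it was over 1 on 1 of the 9.

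**Figure D3:**
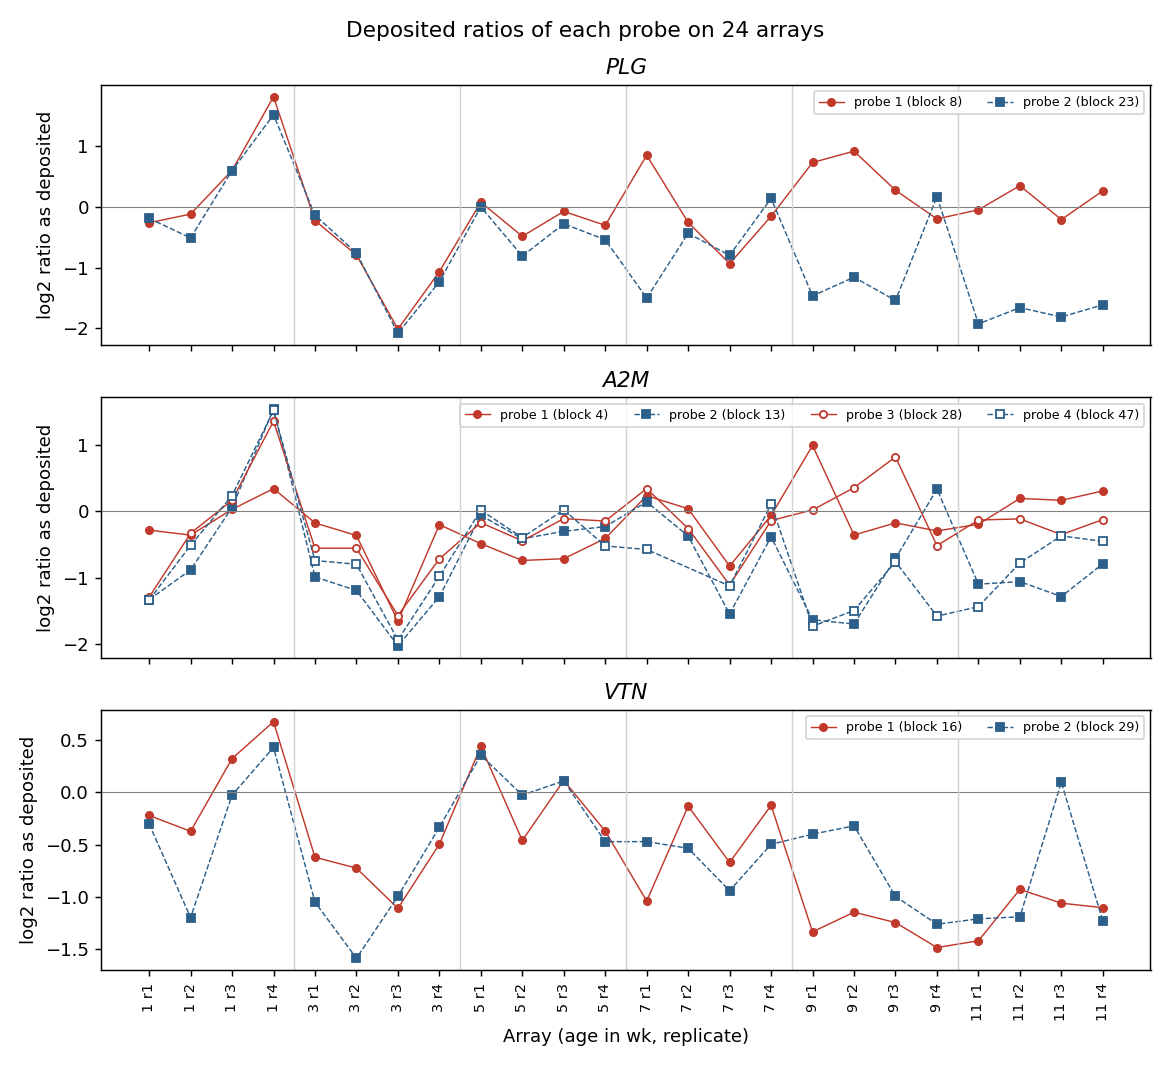
Deposited log2 ratio (y axis) of each probe of PLG, A2M and VTN on the 24 arrays (x axis, age in wk and replicate), red circles for probes in blocks whose number is a multiple of 4 and blue squares for the others. The PLG probes lie within 0.39 of each other up to 5 wk and up to 2.34 apart from 7 wk on, and in A2M blue probes lie below red ones on most arrays of 9 and 11 wk, not on 9 wk replicate 4, where probe 2 is the highest at 0.33, and only narrowly for probe 4 on 11 wk replicate 3.

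Within PLG and within A2M, the probes with the higher mean on the 9 arrays lay in blocks whose number is a multiple of 4, namely PLG probe 1 (0.32 ± 0.43, SD) and A2M probes 1 and 3 (blocks 4 and 28). VTN probe 1 (block 16) went the other way, at -1.19, and CPB2 (block 20) read -0.21 ± 0.36. The mean profile of the 9 arrays correlated with that of the other 15, across the 4800 spots of each class of blocks, at r = 0.73, 0.74 and 0.62 for blocks with a remainder of 1, 2 and 3 on division by 4, and at r = 0.43 for multiples of 4. In the 12 single blocks of the last class r was 0.37 to 0.51, below every block of the other classes (0.55 to 0.78). Whether the spots of these blocks were named, printed or scanned in the same way on all arrays was not tested. KNG1 (block 38) and SERPIND1 (block 30) did not lie in such blocks.

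With those blocks left out, a choice made after seeing the data, CPB2 was no longer measured. KNG1 kept its call between ages (adjusted p = 0.0138), VTN did not (0.267), and PLG, now probe 2 alone, stood at 0.0586. The common term was called for the 5 genes (39.4% of 11691 features). It was -0.75 for PLG, -0.69 for A2M, -0.59 for VTN, -0.36 for SERPIND1 and 0.49 for KNG1. KNG1 and SERPIND1 had no probe in the blocks left out, so their values could not change. VTN was now probe 2 alone and A2M the mean of probes 2 and 4. These results therefore largely restate the single probes given above and are no separate check. The values for PLG and A2M moved by over 1.5 times. The mean over ages of the turned ratios stayed without a call.

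**Figure D4:**
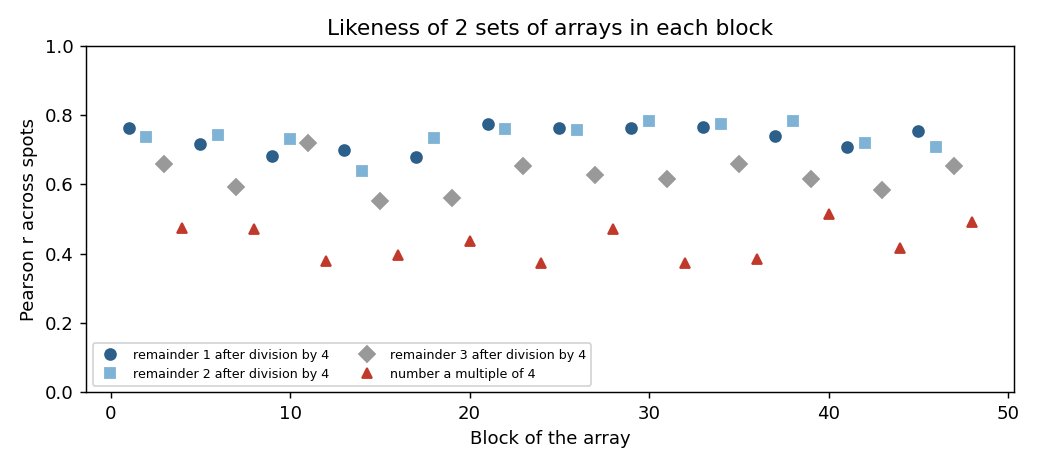
Pearson r across the spots of a block (y axis) between the mean of 9 arrays (7 wk replicate 1, 9 wk and 11 wk) and the mean of the other 15, for each of the 48 blocks (x axis). Blocks whose number is a multiple of 4 (triangles) lie between 0.37 and 0.51, and all other blocks between 0.55 and 0.78.

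Agreement between probes of a gene, taken across genes within an array, was low on all 24 arrays. That is another measure than the correlation of 2 probes across arrays given above for PLG, A2M and VTN. Among the genes with exactly 2 probes (up to 1862 on an array), the correlation of the 2 probes across genes was 0.03 to 0.18 on the 24 arrays. In 724 of these genes 1 probe lay in a block whose number is a multiple of 4, and 1169 were the others. The median correlation was 0.076 for the 724 and 0.074 for the 1169 on the 9 arrays, and 0.157 and 0.111 on the other 15. The median gap between the probes of such genes was 0.25 on the 9 arrays and 0.18 on the others, so the PLG probes, at 0.17 and 1.87, lay near the general gap on the 15 arrays and far above it on the 9. A2M lies in a cluster of related genes in the RefSeq annotation (assembly bGalGal1.mat.broiler.GRCg7b), with A2ML3, OVST and OVSTL following it and A2ML2 nearby, none of which had a probe by symbol. How far a cDNA probe labelled A2M also binds transcripts of these paralogues is not known from the table.

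Averaged over the probes of each gene, PLG, CPB2, SERPIND1, A2M and VTN moved together from array to array, and KNG1 moved against them. After removing each gene's mean in each orientation, which makes the correlation independent of the direction of the columns, PLG and A2M correlated at r = 0.82 over the 24 arrays. All 10 pairs among PLG, CPB2, SERPIND1, A2M and VTN had r of 0.56 to 0.82, and KNG1 was negatively correlated with each of them (-0.50 to -0.74, lowest with VTN). Over the 6384 other genes, the 99th percentile of r with a member was 0.68 (VTN) to 0.79 (KNG1). Among the pairs of members only PLG with A2M lay above it. Single probes were less uniform. The 37 pairs of probes of different genes among these 5 genes ran from -0.07 to 0.88. The lowest was A2M probe 1 with VTN probe 1, and the highest PLG probe 1 with A2M probe 3. Probes of the same gene correlated at 0.34 in PLG, 0.23 to 0.76 in A2M and 0.66 in VTN. PLG probe 2 correlated with A2M probes 1 and 3 at 0.05 and 0.25, and with A2M probes 2 and 4 at 0.70 and 0.63. For PLG probe 1 these were 0.72 and 0.88, and 0.56 and 0.49. KNG1 with the single probes ran from -0.87 to -0.03. These values are descriptive, since the points share arrays, dyes and normalization. The age means were not removed, so the differences between ages given above for KNG1 and VTN enter these correlations. They include 1 wk replicate 4, which gave the highest value for these 5 genes and the lowest for KNG1, and its part in them was not tested. The residual SD of the 6 genes was 0.38 to 0.75, between the 92.6th and 99.2nd percentile of all features, whose median was 0.17.

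The genes most alike by this measure were the xenobiotic oxidase CYP2D6 (r = 0.91), TMEM115 (0.91) and PPIL4 (0.91) for PLG. For A2M they were TMEM115 (0.90), the transaminase GOT1 (0.89) and the carnitine synthesis enzyme BBOX1 (0.89). For CPB2 they were the aconitase ACO1 (0.87), catalase (CAT, 0.85) and the helicase DDX46 (0.84). SERPIND1 was most like adenosine kinase (ADK, 0.87), complement factor I (CFI, 0.87) and protein C (PROC, 0.86), and VTN was most like the amyloid precursor gene APP (0.86), apolipoprotein H (APOH, 0.85) and the ribosomal protein gene RPLP0 (0.84). KNG1 was most like SMG6 (0.90), OSBPL11 (0.90) and LRRC8A (0.89).

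Of 17 other genes listed with the plasminogen system, which take in some outside its core, 8 were measured. In the common term 4 were negative and 2 positive past the threshold (median -0.10). Over all features 13.5% were negative and 24.2% positive past it, which is the background for this list and those below. The plasminogen-binding enolase ENO1 (-0.59), the protease HABP2 (-0.47) and the protease TMPRSS6 (-0.21) were the most negative. TMPRSS6, not a core member of that system, passed narrowly (limma adjusted p = 0.0488). ANXA2 (0.31) and S100A10 (0.24), which form a plasminogen receptor at the cell surface, were the positive ones. Of the contact and kinin system 11 of 21 were measured, with 1 negative and 3 positive calls (median 0.04). The carboxypeptidases CPD (0.25), CPN2 (0.23, the regulatory subunit of carboxypeptidase N, which inactivates kinins) and CPE (0.15) were positive, CPB1 was negative (-0.09), and plasma kallikrein (KLKB1), which releases bradykinin, stood at -0.07 (adjusted p = 0.0920).

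Of 52 listed protease inhibitors 24 were measured, with 5 negative and 5 positive calls (median -0.03), where the background was 13.5% and 24.2% of features. Fetuin B (FETUB, -0.59), AMBP (-0.56), which carries bikunin, and SPINK7 (-0.46) were the most negative, and cystatin C (CST3, 0.35), RECK (0.18) and cystatin B (CSTB, 0.16) the most positive. Of 14 genes listed with the receptors for vitronectin and A2M, not all of them receptors, 8 were measured. The calls were VLDLR (-0.14), negative, and the integrin subunit ITGB1 (0.17), positive. Of 19 genes of thrombin generation and fibrin 13 were measured, with 4 negative and 2 positive calls (median -0.11). The factors F9 (-0.50) and F10 (-0.49) and protein C (PROC, -0.33) were the most negative and F8 (0.22) and VWF (0.13) the positive ones. No gene of these 5 lists was called by limma in the mean over ages or in the dependence of the line ratio on age. In the mean over ages 2 of the 64 measured genes (3.12%) had an unadjusted p under 0.05, near the 3.34% of all features, namely the metalloprotease inhibitor TIMP2 (-0.12 ± 0.04, SE) and the subunit of the clot-linking factor XIII F13A1 (-0.04 ± 0.02), named after their values were seen.

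Markers of cell types gave a mixed picture in the common term, in which 13.5% of all features were called negative and 24.2% positive. Of 12 hepatocyte markers 11 were measured, and 7 were negative and 1 positive (median -0.26). TTR was negative on all 24 arrays (-0.59), APOH stood at -0.73 and APOB at -0.66, and RBP4 was positive (0.24). Of 11 macrophage markers 9 were measured (3 negative, 2 positive, median -0.11), of 10 stellate cell markers 8 (1 and 3, median 0.00) and of 9 endothelial markers 8 (1 and 3, median 0.06). Bile duct (2 of 5 measured), blood cell (4 of 9), lymphocyte (2 of 7), adipocyte (4 of 5) and muscle (3 of 6) markers had no negative call and 1 or 2 positive ones, and pancreas markers (3 of 6) had 1 of each. The part of cell composition in the values of the 6 genes was not tested.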

How the data were processed

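Total RNA from FL and LL livers was labelled with 2 dyes and hybridised by the authors to a spotted cDNA array. The deposited table holds log2 ratios (the base was taken from the range of the values), already normalized by the authors, and the scanner, background correction and normalization method are not given in the sources used here. No further normalization was applied. Probes were named from the platform annotation (10601 of 19200 had 1 symbol, 8599 none, none several), the mean over a gene's probes was used, and features had to have values on 3 or more of the 4 arrays of every age.

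limma (version 3.58.1, R 4.3.3) was fitted over 14855 features with 6 age coefficients that carry the sign of the dye orientation and 1 common term, or with 6 untouched age means and 1 orientation term. Tests were two-sided with Benjamini-Hochberg adjustment over all features and a threshold of 0.05. The number of arrays limits the precision. The scripts were tested on simulated data.

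The members and lists were chosen with earlier results of these data known. All 6 members and their probes are named. From each pathway list the 3 largest calls in each direction are named, and for each member the 3 most alike genes. The marker genes named were chosen after their values were seen. Alternatives covered column direction, scaling, filters, array weights, a dye term for each age, a replicate block, single probes and arrays left out. No sequences were used, and genome positions served only to order the genes next to A2M.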

Additional observations from a re-analysis of the deposited data

Results flagged for a closer look

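A2M on 3 wk replicate 3 read -1.80 as deposited, apart from the other 3 arrays of that age, which lay between -0.80 and -0.62. Over 36 groups of 4 arrays (6 genes at 6 ages) it was the only value whose gap to its nearest neighbour was so large a share of the group's range (0.847, with a critical value of 0.829), and chance alone marks about 1 group in 20. All 4 A2M probes were low on this array, between -2.03 and -1.57, and it had the widest spread of values over all spots (SD 0.39).

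The ratio as deposited differed between ages for KNG1 (limma's moderated F test, adjusted p = 0.00903) and for VTN (adjusted p = 0.0327). Over all alternatives and single probes the adjusted p ran from 0.00234 to 0.279 for KNG1 and from 0.00341 to 0.267 for VTN. The highest value for KNG1 came without 7 wk replicate 1 and all arrays of 9 and 11 wk, and the highest for VTN without the blocks whose number is a multiple of 4.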

How the results depend on the processing

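Taking the columns as already turned before deposit changed most: 5 genes were then called in the mean over ages (not CPB2; 41.3% of all features), 12 of 36 combinations of gene and age (9.42%), 2 genes in the dependence on age (4.89%) and 2 in the linear trend (5.43%). The means over ages became -0.45 for A2M, -0.15 for CPB2, 0.49 for KNG1, -0.41 for PLG, -0.36 for SERPIND1 and -0.60 for VTN. These are the common terms given above, called for the same 5 genes, so they are no separate result. In each other alternative run, none of these 4 comparisons called a member (the 2 alternatives added after seeing the data were run for the mean over ages only), also with each array left out in turn (0 to 0), and for single ages the lowest adjusted p was 0.0774.

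Means near 0 changed sign without a call. KNG1 became 0.0158 with 1 wk replicate 4 turned, 0.0113 with arrays centred, 0.0373 with arrays centred and scaled and 0.0315 with array weights. PLG became -0.0247 with 1 wk replicate 4 turned. SERPIND1 became -0.0556 with that array turned, -0.00970 with array weights and -0.0376 without 7 wk replicate 1, 9 wk and 11 wk. VTN became 0.00425 without 7 wk replicate 1 and 11 wk replicate 4, and 0.0489 from probe 1 alone. With each array left out, the mean ran from -0.0374 to 0.0396 for KNG1, from -0.0440 to 0.0882 for SERPIND1 and from -0.0944 to 0.0186 for VTN.

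In the common term, 3 members were called without 7 wk replicate 1, 9 wk and 11 wk, which leaves 15 arrays (28.5% of all features). They were A2M (-0.49), VTN (-0.37) and KNG1 (0.31). With each array left out, 4 to 6 members were called, with 33.6% to 40.8% of all features. Between ages as deposited, 1 member was called with arrays centred and scaled (4.5% of all features). Without the blocks whose number is a multiple of 4 it was also 1 (3.34%). The count was 0 without 7 wk replicate 1, 9 wk and 11 wk (limma, 0.209%) and 3 with array weights (13.1%). With each array left out it was 1 to 3 (2.71% to 8.78%). CPB2 passed in the common term with 1 wk replicate 4 turned (adjusted p = 0.0210), and PLG did not pass without 7 wk replicate 1 and 11 wk replicate 4 (0.0528). The cause of these changes was not tested.

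The replicate number marks the dye orientation and nothing else in the labels. Residuals of arrays with the same number at different ages correlated at -0.64 to 0.46 (median -0.11), and 7 of 24 arrays correlated best with their own number, so the numbers were not taken as pairs. With the replicate block the same 5 members were called in the common term (36.3% of all features, limma adjusted p = 0.0338 for PLG). Between ages 2 were called (3.83% of all features, moderated F test adjusted p = 0.0492 for VTN), and 0 in the mean over ages (0%).

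No probe intensity or background was analysed here, so the precision of single spots is unknown.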
